A study of Mus musculus with 6 samples.

Results

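The tumor necrosis factor (TNF) superfamily was examined in the liver of mice fed a normal diet (ND) or CDA-HFD, a high-fat diet without choline and with defined amino acids that induces steatohepatitis (MASH). Members were chosen by symbol: every gene of the liver table named *Tnfsf* or *Tnfrsf* with a number, together with *Tnf*, *Lta*, *Ltb*, *Ltbr*, *Cd40* and *Cd40lg*. This gave 38 of 55254 genes, of which 15 encode ligands, 22 encode receptors and 1, *Tnfsf13os*, is a noncoding antisense gene.

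Liver RNA was sequenced from 3 ND libraries and 3 libraries after 7 weeks of CDA-HFD, all labelled wild type (WT) and as biological replicates. The labels give no strain, sex or age per library. The study's methods describe the MASH diet as given to male mice and the purchased strain as C57BL/6J. The extraction text of the labels speaks of sorted cells, although the tissue is given as liver, and none of 6 hepatocyte markers was at 0 in any library (their summed level was 29100 to 29300 TPM in ND and 22700 to 24800 TPM in CDA-HFD).

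Most ligands of this superfamily are membrane proteins that act as trimers and can be shed from the cell surface. Their receptors fall into those with a death domain, which can recruit caspase-activating adaptors, and those that bind TRAF adaptors and activate NF-kappaB and MAP kinases. In the liver, TNF and its relatives are known for their parts in inflammation, hepatocyte death and regeneration, and lymphocyte support.

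*Ltb*, *Tnf* and *Lta* lie side by side on chromosome 17 (GRCm38 17:35194439-35196320, 17:35199381-35202007 and 17:35203165-35205351, with *Ltb* on the plus strand and the other genes on the minus strand). The stretches upstream of *Ltb* and *Tnf* are shown because these neighbors both rose on CDA-HFD. They come from RefSeq's GRCm38.p6 assembly, at chr17:35194257-35194438 on the plus strand and chr17:35202008-35202257 on the minus strand, and end where the annotated gene begins. Capitals mark the NF-kappaB consensus, searched by its 10-base degenerate motif on both strands.
*Ltb*: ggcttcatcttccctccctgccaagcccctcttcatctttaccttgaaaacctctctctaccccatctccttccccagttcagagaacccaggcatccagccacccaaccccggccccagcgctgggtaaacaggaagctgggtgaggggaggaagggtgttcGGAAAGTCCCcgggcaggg
*Tnf*: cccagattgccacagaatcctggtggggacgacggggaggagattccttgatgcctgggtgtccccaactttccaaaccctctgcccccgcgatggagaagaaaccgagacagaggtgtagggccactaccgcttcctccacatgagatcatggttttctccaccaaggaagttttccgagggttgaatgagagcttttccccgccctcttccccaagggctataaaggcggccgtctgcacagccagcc

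In *Ltb* the match lay 87 to 78 bases before the RefSeq start site, and the *Tnf* window held none. The RefSeq start site of *Ltb* lies inside the annotated gene, so the match stands nearer to the end of the printed stretch. Windows of 250 bases before the start were available for 28 member genes, and the consensus was found in those of 3, *Ltb*, *Tnfrsf8* and *Tnfrsf9*. Over all 32851 windows of the same length, 3.9% held it. The AP-1 motif TGANTCA, searched on both strands, was found for 5 members, *Tnfrsf8*, *Tnfrsf9*, *Tnfsf13*, *Tnfsf13b* and *Tnfsf14*, and in 6.75% of all windows. These letter matches were not measurements of binding.

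Genes of the superfamily were mostly higher in CDA-HFD liver, and no tested member fell. Of the 38 members, 23 had a mean of at least 1 TPM (a transcript level corrected for gene length and depth) over the 6 libraries and were tested. With limma on log2(TPM + 1), 15 rose, 0 fell and 8 were not called at an adjusted p below 0.05 and a log2 fold change of at least 1 in size. Over all 14730 genes tested, 21.1% rose and 3.79% fell. The count of falling members was also 0 at an unadjusted p below 0.05 and with voom on recovered reads. A total of 11 tested members reached the minimum only through their CDA-HFD level, so that only a rise could bring them into the test. They were *Tnf*, *Tnfsf13*, *Tnfsf13b*, *Cd40*, *Tnfrsf10b*, *Tnfrsf11a*, *Tnfrsf13b*, *Tnfrsf18*, *Tnfrsf22*, *Tnfrsf23* and *Tnfrsf26*. Among the 12 members with an ND mean of at least 1 TPM, 6 rose. The 21.1% above covers all genes tested, and the share over genes with such an ND mean was not computed.

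In all 3 CDA-HFD libraries, 20 of the 23 tested members were above every ND library, against 54.9% of all genes tested. These 20 include all 11 members that reached the minimum only through CDA-HFD, and the 3 others tested all had an ND mean of at least 1 TPM. The count of 20 is therefore a description only. Over all 38 members this count was 28, with 9 overlapping and 1 below. The matching share over all genes without a minimum level was not computed, so this count has no background. The median log2 fold change was 1.60 over tested members and 0.32 over all genes, as a description only, since the 11 members counted above could enter only by being high in CDA-HFD. Without a minimum level the medians were 0.71 over the 38 members and 0.15 over 27155 genes. Median-of-ratios scaling moved the medians with the minimum to 1.29 and -0.04, and quantile normalization to 0.90 and -0.11, so a member near the overall median has no fixed direction. Values below are TPM in ND replicates 1, 2 and 3 and then in CDA-HFD replicates 1, 2 and 3, and each change is the CDA-HFD mean minus the ND mean of log2(TPM + 1) with its SE, which comes out too small for genes of low level.

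**Figure D1:**
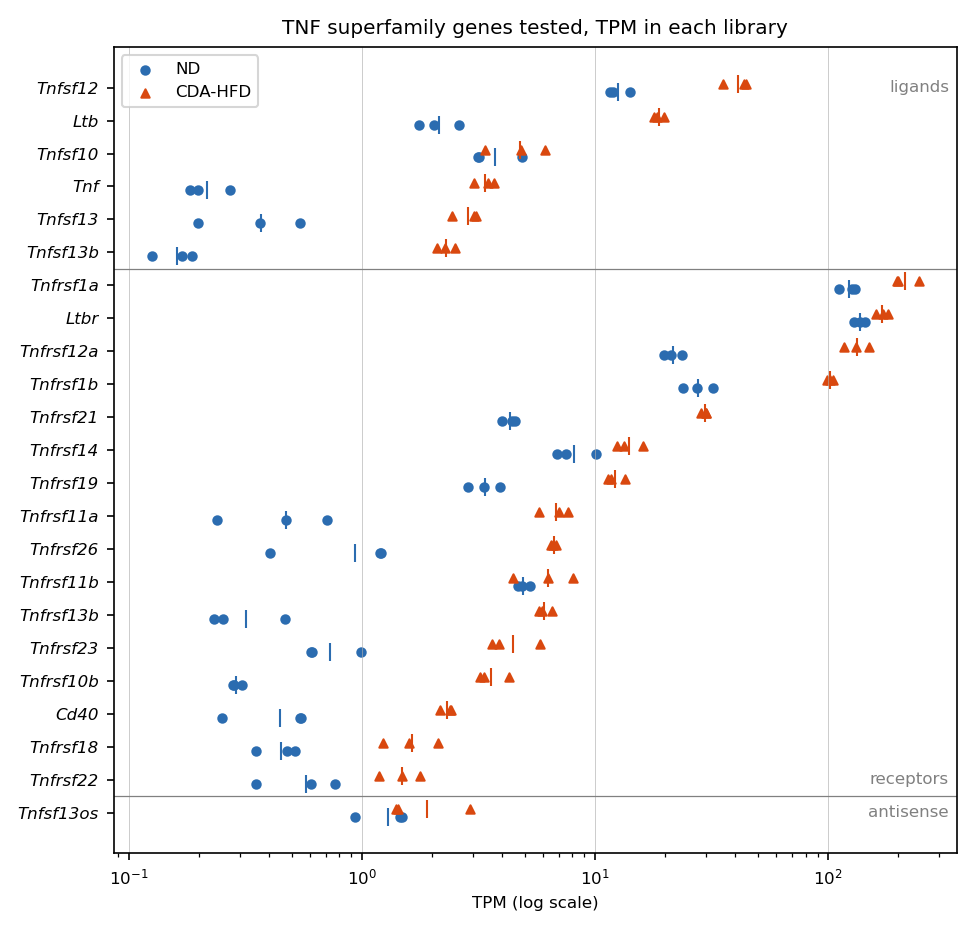
TPM of the 23 tested members on a log axis, with 1 circle per ND library, 1 triangle per CDA-HFD library and a vertical tick at each group mean. The groups of *Tnfsf10*, *Tnfrsf11b* and *Tnfsf13os* overlap, and the other 20 members lie higher in all CDA-HFD libraries.

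Among the classical TNF and lymphotoxin genes, the ligands *Tnf* and *Ltb* and the receptor *Tnfrsf1b* rose, while *Tnfrsf1a* and *Ltbr*, the receptors of highest level in ND liver, did not pass the fold limit. *Tnf*, which encodes the founding cytokine of the family, was at 0.198, 0.183 and 0.271 TPM in ND and at 3.68, 3.01 and 3.48 TPM in CDA-HFD. It was low in every ND library and the groups did not overlap. These levels rested on 2, 2 and 3 reads in ND and 45, 35 and 47 reads in CDA-HFD, a ratio of 15.6 with an exact 95% interval of 7.35 to 39.6 that covers counting error only. The log2 fold change of *Tnf* was 1.85 ± 0.13 (limma, adjusted p = 9.19e-06).

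*Ltb* encodes lymphotoxin beta, which forms a membrane-bound heterotrimer with lymphotoxin alpha. It was at 2.61, 2.04 and 1.76 TPM in ND and at 17.96, 19.8 and 18.4 TPM in CDA-HFD. The lowest CDA-HFD library was 6.87 times the highest ND library, and *Ltb* rose by 2.66 ± 0.12 (limma, adjusted p = 7.43e-07). This was the largest change of a tested member with the pseudocount of 1. *Tnfrsf13b* had a larger one than *Ltb* with a pseudocount of 0.5 (3.02 and 2.88), with 0.1 (3.92 and 3.09) and with voom (4.14 and 3.07). *Tnfrsf11a* was above *Ltb* in these settings too (2.93, 3.67 and 3.88). *Tnf*, *Tnfrsf10b* and *Tnfsf13b* were above it with 0.1 and with voom. *Lta*, which encodes lymphotoxin alpha, lay below the test's minimum, with 1, 0 and 1 reads in ND and 2, 1 and 3 in CDA-HFD. Its groups overlapped, and the ratio of 2.58 had an interval from 0.461 to 26.1, so no difference was detectable at this depth.

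*Tnfrsf1a*, the widely expressed death domain receptor of TNF, was at 131, 126 and 111 TPM in ND and at 199.6, 244 and 198 TPM in CDA-HFD. All CDA-HFD libraries were higher, but the log2 fold change of 0.79 ± 0.10 (limma, adjusted p = 0.000209) stayed under the limit of 1, and it was 0.40 with median-of-ratios scaling. *Tnfrsf1b*, the TNF receptor without a death domain, was at 32.0, 27.5 and 23.8 TPM in ND and at 105, 98.6 and 102 TPM in CDA-HFD. It rose by 1.85 ± 0.10 (limma, adjusted p = 2.32e-06). Within each library, *Tnfrsf1a* stood at 4.08, 4.60 and 4.67 times *Tnfrsf1b* in the ND libraries and at 1.90, 2.48 and 1.94 times in the CDA-HFD libraries.

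*Ltbr*, the receptor of the lymphotoxin heterotrimer, was at 144, 137 and 129.5 TPM in ND and at 160, 181 and 171 TPM in CDA-HFD. Its log2 fold change was 0.32 ± 0.07 (limma, adjusted p = 0.00419), equal to the median of all genes, and -0.08 with median-of-ratios scaling. The TPM of *Ltbr* was 55.3, 67.1 and 73.6 times that of *Ltb* in ND, and 8.91, 9.18 and 9.28 times in CDA-HFD.

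Markers of several immune cell types were higher in the same libraries. All 4 monocyte markers rose, with sums of 8.75 to 10 TPM in ND and 95.2 to 111 TPM in CDA-HFD, and so did all 6 markers of lipid-associated macrophages (159 to 181 and 2800 to 3050 TPM). Among T cell markers 4 of 5 tested rose (the 6 on the list summed to 3.53 to 5.14 and 14.9 to 21.5 TPM), and all 3 tested of 4 NK cell markers rose (1.62 to 2.79 and 16.7 to 20.6 TPM). All 4 neutrophil markers rose (19.6 to 27.9 and 113 to 173 TPM), and 2 of 5 Kupffer cell markers fell (the 5 summed to 365 to 420 and 454 to 463 TPM). None of these lists had a marker at 0 in all libraries. *Ccr2*, *Cx3cr1*, *Gpnmb*, *Itgax*, *Cd3e*, *Cd3d*, *Cd8a*, *Klrb1c* and *Klrd1* had ND means under 1 TPM. They reached the test's minimum only through CDA-HFD, so only a rise could bring them into these counts. The share of rises over all genes tested, for these and the marker lists below, was 21.1%. In whole liver, more cells of a type and more RNA per cell cannot be told apart, and the part of these cells in the rises of *Tnf*, *Ltb* and *Tnfrsf1b* was not tested.

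In the TWEAK axis both the ligand and the receptor gene rose. *Tnfsf12* encodes TWEAK and *Tnfrsf12a* its receptor Fn14, known for its induction in injured tissue. *Tnfsf12* was the ligand of highest TPM in both diets, at 11.97, 14.1 and 11.6 TPM in ND and 35.5, 43.5 and 44.4 TPM in CDA-HFD. It rose by 1.63 ± 0.11 on the log2 scale (limma, adjusted p = 7.28e-06) without overlap of the groups. *Tnfrsf12a* was at 23.7, 19.8 and 21.1 TPM in ND and at 149, 117 and 131 TPM in CDA-HFD. It rose by 2.57 ± 0.11 (limma, adjusted p = 4.16e-07), and the TPM ratio of receptor to ligand went from 1.98, 1.40 and 1.82 to 4.21, 2.69 and 2.95 without overlap. All 4 cholangiocyte markers rose in these libraries (summed level 9.68 to 11.4 TPM in ND and 103 to 115 TPM in CDA-HFD), and their part in the rise of *Tnfrsf12a* was not tested. One of them, *Krt7*, reached the test's minimum only through CDA-HFD.

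*Tnfsf12* and its neighbor *Tnfsf13* share exon sequence on the same strand with *Tnfsfm13*, a readthrough gene of both (50.7% of the exon length of *Tnfsf12* and 60.0% of that of *Tnfsf13*). *Tnfsfm13* was listed at 1.01, 0.671 and 0.795 TPM in ND and 3.18, 3.47 and 3.47 TPM in CDA-HFD. How reads in shared exons were assigned is not given in the sources used here, so the split between these 3 genes is uncertain.

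Among receptors with a death domain, *Tnfrsf21* and *Tnfrsf10b* rose. *Tnfrsf21* encodes death receptor 6, a death domain receptor expressed in many tissues. Its level was 3.98, 4.42 and 4.53 TPM in ND and 30.1, 29.98 and 28.5 TPM in CDA-HFD, a rise of 2.52 ± 0.08 (limma, adjusted p = 1.75e-07). The replicates of each diet lay close together, and this was the smallest adjusted p of any member. *Tnfrsf10b*, the death domain receptor of TRAIL in the mouse, was at 0.306, 0.283 and 0.2796 TPM in ND (6 reads in each library) and at 4.26, 3.33 and 3.21 TPM in CDA-HFD (101, 75 and 84 reads). It rose by 1.83 ± 0.14 (limma, adjusted p = 1.32e-05).

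The gene of the ligand TRAIL was not called. This gene, *Tnfsf10*, was at 3.14, 4.87 and 3.18 TPM in ND and at 6.10, 4.79 and 3.39 TPM in CDA-HFD. These groups overlapped, and the log2 fold change was 0.28 ± 0.21 (limma, adjusted p = 0.277), turning to -0.05 with median-of-ratios scaling and to -0.42 with quantile normalization. The TPM ratio of *Tnfrsf10b* to *Tnfsf10* was 0.0974, 0.0581 and 0.0880 in ND and 0.697, 0.694 and 0.947 in CDA-HFD.

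Closely related receptor genes lie together on chromosome 7. *Tnfrsf22* and *Tnfrsf23* encode decoy receptors of TRAIL in the mouse, and *Tnfrsf26* encodes a related orphan receptor (GRCm38 7:143634806-143649661, 7:143665809-143685872 and 7:143607659-143628722, all on the minus strand). *Tnfrsf26* was at 0.403, 1.21 and 1.20 TPM in ND and at 6.83, 6.49 and 6.60 TPM in CDA-HFD. It rose by 2.01 ± 0.19 (limma, adjusted p = 3.97e-05), and the low value of ND replicate 1 came from 8 reads, against 26 in each of the other ND libraries. *Tnfrsf23* was at 0.988, 0.610 and 0.602 TPM in ND and at 5.81, 3.63 and 3.86 TPM in CDA-HFD, with CDA-HFD replicate 1 the highest. Its rise of 1.63 ± 0.18 (limma, adjusted p = 0.000113) became 0.90 with quantile normalization, under the fold limit.

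*Tnfrsf22* was at 0.768, 0.604 and 0.351 TPM in ND and at 1.49, 1.77 and 1.18 TPM in CDA-HFD. The groups did not overlap, but the change of 0.66 ± 0.17 (limma, adjusted p = 0.00942) was under the fold limit. It was 1.34 and called with voom on recovered reads, and it turned to -0.11 with quantile normalization. Reads that fit more than 1 of these paralogs could be split between them, and *Tnfrsf23* and *Tnfrsf26* also share 11.1% and 3.33% of their exon length with an antisense gene, so their separate levels are uncertain.

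*Tnfrsf19* encodes TROY, a receptor with no death domain that is known from stem and progenitor cells. It was at 3.34, 3.91 and 2.86 TPM in ND and at 13.5, 11.7 and 11.4 TPM in CDA-HFD. The groups did not overlap, and the rise was 1.60 ± 0.12 (limma, adjusted p = 1.33e-05). With quantile normalization it was 0.95, under the fold limit. Among stellate cell and myofibroblast markers, 5 of 6 rose, with sums of 53.1 to 54.5 TPM in ND and 307 to 362 TPM in CDA-HFD and none at 0, and their part in the rise of *Tnfrsf19* was not tested.

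**Figure D2:**
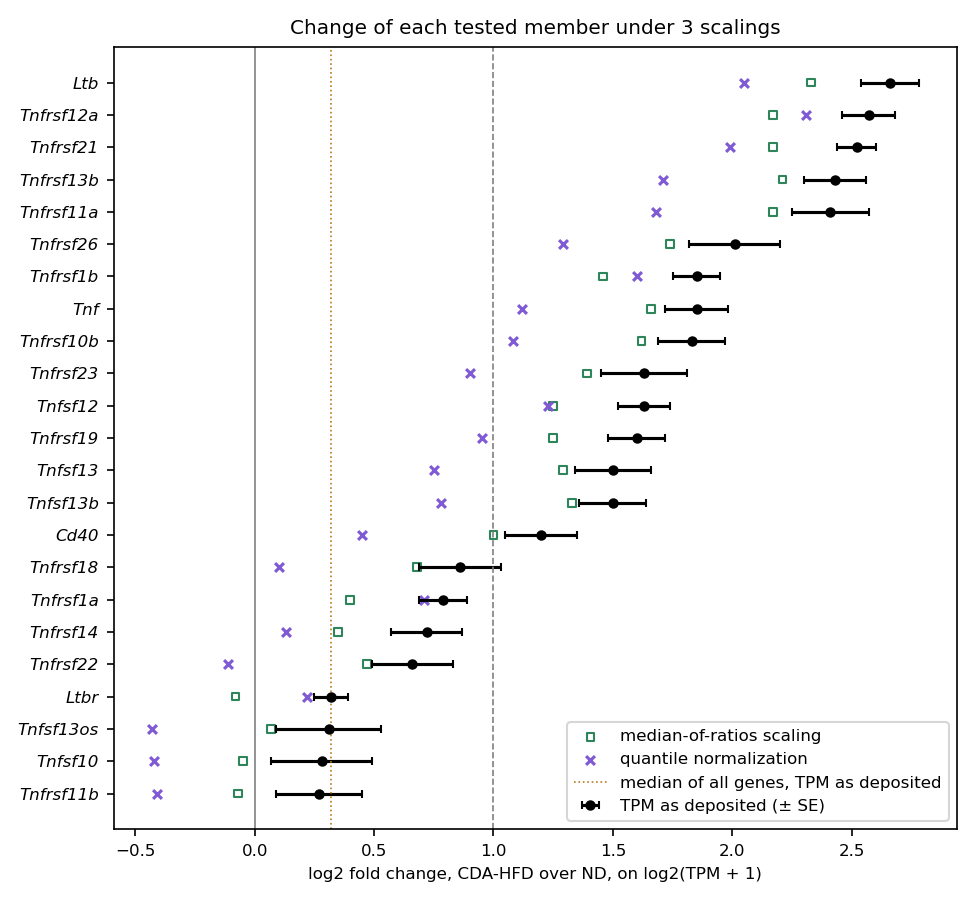
Change (CDA-HFD against ND, log2 fold) of each of the 23 tested members, on log2(TPM + 1), with the SE as a bar, and the same value under median-of-ratios scaling (squares) and quantile normalization (crosses). The solid line is at 0, the dashed line at the fold limit of 1 and the dotted line at the median of all genes (0.32). *Ltb* (2.66), *Tnfrsf12a* (2.57) and *Tnfrsf21* (2.52) lead with this pseudocount, which shrinks changes of low genes (with voom *Tnfrsf13b* leads at 4.14), and *Tnfsf10*, *Tnfrsf11b*, *Ltbr*, *Tnfrsf22* and *Tnfsf13os* fall below 0 under at least 1 of the other scalings.

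The ligands and a receptor of the B cell axis rose. All of these genes reached the test's minimum only through their CDA-HFD level. *Tnfsf13b* encodes BAFF and *Tnfsf13* APRIL, cytokines that sustain B cells and plasma cells. *Tnfsf13b* was at 0.1698, 0.126 and 0.186 TPM in ND (5, 4 and 6 reads) and at 2.50, 2.10 and 2.26 TPM in CDA-HFD (89, 71 and 89 reads). It rose by 1.50 ± 0.14 on log2(TPM + 1) (limma, adjusted p = 3.21e-05). At these levels the added 1 TPM shrinks the change, and the reads alone gave a ratio of 14.3 (95% interval 8.48 to 25.9) and a log2 fold change of 3.67 ± 0.31 with voom. *Tnfsf13* was at 0.198, 0.366 and 0.543 TPM in ND and at 3.03, 3.10 and 2.45 TPM in CDA-HFD, a rise of 1.50 ± 0.16 (limma, adjusted p = 7.05e-05). For both ligands the groups did not overlap, and quantile normalization gave 0.78 and 0.75, under the fold limit.

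The receptors of BAFF and APRIL differed in level. *Tnfrsf13b* encodes TACI, which binds both ligands, and was at 0.254, 0.469 and 0.232 TPM in ND and 5.92, 5.74 and 6.55 TPM in CDA-HFD. It rose by 2.43 ± 0.13 (limma, adjusted p = 1.93e-06), with a read ratio of 19.1 (95% interval 11.6 to 33.7). *Tnfrsf13c*, the BAFF receptor of B cells, was below the test's minimum, with 2, 4 and 3 reads in ND and 18, 10 and 17 reads in CDA-HFD, a ratio of 4.30 (95% interval 2.07 to 10). *Tnfrsf17*, the receptor of plasma cells, had 1 read in 1 library of each diet. The ratio of *Tnfrsf13b* to *Tnfsf13b* in TPM overlapped between the diets, at 1.49, 3.73 and 1.24 in ND and 2.37, 2.73 and 2.89 in CDA-HFD.

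B cell markers summed to 4.07 to 5.91 TPM in ND and 11.7 to 13.8 TPM in CDA-HFD, and both tested markers of 4 rose. Plasma cell markers summed to 230 to 253 and 271 to 308 TPM, with 2 of 3 tested rising. Most of that sum was *Sdc1*, which was not called (222 ± 10.6 and 208 ± 2.60 TPM, SD, n = 3), while *Igkc* rose from 19.2 ± 2.37 to 79.1 ± 21.5 TPM and *Jchain* from 1.71 ± 0.437 to 7.56 ± 2.01 TPM. No marker of either list was at 0 in all libraries, and their part in the levels of the receptors was not tested.

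The noncoding gene *Tnfsf13os* overlaps *Tnfsf13* on the opposite strand. Its level was 1.46, 1.49 and 0.935 TPM in ND and 2.90, 1.40 and 1.42 TPM in CDA-HFD, with overlapping groups and CDA-HFD replicate 1 standing above the others. The log2 fold change was 0.31 ± 0.22 (limma, adjusted p = 0.246) and turned to -0.43 with quantile normalization. Without a stated strand setting, its reads and those of *Tnfsf13* in the shared 221 bases cannot be told apart.

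In the RANK system, the signaling receptor rose, while its soluble competitor was not called. *Tnfrsf11a* encodes RANK, the receptor that drives osteoclast differentiation, and was at 0.709, 0.239 and 0.472 TPM in ND and at 7.62, 6.99 and 5.77 TPM in CDA-HFD. The lowest CDA-HFD library was 8.14 times the highest ND library, and the rise was 2.41 ± 0.16 (limma, adjusted p = 6.44e-06). *Tnfrsf11b* encodes osteoprotegerin, a secreted decoy for RANK ligand, and was at 4.66, 4.84 and 5.26 TPM in ND and 8.03, 4.45 and 6.29 TPM in CDA-HFD. Its groups overlapped and its log2 fold change was 0.27 ± 0.18 (limma, adjusted p = 0.224), with the opposite sign under median-of-ratios scaling (-0.07) and quantile normalization (-0.41).

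Within each library, *Tnfrsf11b* was 6.57, 20.3 and 11.1 times *Tnfrsf11a* in ND and 1.05, 0.638 and 1.09 times in CDA-HFD. *Tnfsf11*, the gene of RANK ligand, had 0 reads in all ND libraries and 2, 1 and 3 reads in CDA-HFD. Set against the 3 reads that a count of 0 over the ND group allows, this gave a lower limit of 1.72-fold. The CDA-HFD count was taken as exact there.

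*Cd40*, a receptor of antigen-presenting cells, was at 0.543, 0.251 and 0.546 TPM in ND (10, 5 and 11 reads) and at 2.15, 2.41 and 2.40 TPM in CDA-HFD (48, 51 and 59 reads). The groups did not overlap. It rose by 1.20 ± 0.15 (limma, adjusted p = 0.000179), and its change was 0.45 with quantile normalization, under the fold limit. *Cd40lg*, the gene of its T cell ligand, had 2, 2 and 1 reads in ND and 4, 1 and 6 in CDA-HFD, and its groups overlapped. Dendritic cell markers summed to 2.12 to 2.95 TPM in ND and 22.2 to 22.3 TPM in CDA-HFD, with 4 of 5 rising and none at 0, and their part in the rise of *Cd40* was not tested. All 5 of these markers had ND means under 1 TPM and reached the test's minimum only through CDA-HFD. Only a rise could therefore bring them into this count.

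*Tnfrsf14* encodes HVEM, the receptor of the ligand LIGHT encoded by *Tnfsf14*. It was at 6.87, 10.1 and 7.53 TPM in ND and at 16.1, 13.4 and 12.4 TPM in CDA-HFD. The groups did not overlap, but the change of 0.72 ± 0.15 (limma, adjusted p = 0.00354) was under the fold limit. It was 0.35 (adjusted p = 0.0675) with median-of-ratios scaling and 0.13 (adjusted p = 0.421) with quantile normalization in the same limma test. *Tnfsf14* had 3, 7 and 4 reads in ND and 15, 14 and 25 reads in CDA-HFD, a ratio of 3.31 (95% interval 1.82 to 6.46). It lay below the minimum of 1 TPM, and voom on the recovered reads called it (log2 fold change 1.61 ± 0.40, adjusted p = 0.00507).

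Of the 8 costimulatory ligand and receptor genes of lymphocytes only *Tnfrsf18*, which encodes the T cell receptor GITR, reached the minimum of the test. It was at 0.514, 0.476 and 0.353 TPM in ND and at 1.59, 1.23 and 2.12 TPM in CDA-HFD, without overlap and with a change of 0.86 ± 0.17 (limma, adjusted p = 0.00241), under the fold limit. With pseudocounts of 0.1 and 0.5 it was 1.66 and 1.16 and called (limma, adjusted p = 0.00287 and 0.00225), and with quantile normalization it was 0.10 (adjusted p = 0.626). *Tnfrsf18* shares 25.5% of its exon length with *Gm16008* on the opposite strand, which was at 0.126 to 0.465 TPM in ND and 0.658 to 1.42 TPM in CDA-HFD.

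Several of the untested genes had 0 or few reads in the ND libraries and reads in every CDA-HFD library. *Tnfrsf9*, a receptor induced on activated T and NK cells, had 0 reads in all ND libraries and 11, 11 and 13 reads in CDA-HFD. Set against a floor of 3 reads over the ND group, this gave a lower limit of 10-fold, with the CDA-HFD count taken as exact. *Tnfrsf8*, which encodes CD30 of activated lymphocytes, had 0 reads in all ND libraries and 7, 9 and 13 reads in CDA-HFD. The lower limit was 8.31-fold on the same terms.

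*Tnfsf8*, the gene of the CD30 ligand, had 0, 1 and 2 reads in ND and 27, 16 and 15 reads in CDA-HFD, a ratio of 16.6 (95% interval 5.41 to 82.9). It was called with voom on recovered reads (log2 fold change 3.69 ± 0.55, adjusted p = 0.000159) and not with limma on TPM without a minimum level (0.68 ± 0.11). *Tnfrsf4*, which encodes OX40 of activated T cells, had 0, 0 and 2 reads in ND and 17, 7 and 15 in CDA-HFD, a ratio of 16.8 (95% interval 4.34 to 143). It was called with limma when no minimum level was set (1.25 ± 0.21, adjusted p = 0.00353). *Tnfsf9*, the ligand of the *Tnfrsf9* product, had 2, 0 and 2 reads in ND and 13, 5 and 9 reads in CDA-HFD, a ratio of 5.80 (95% interval 2.02 to 22.8).

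The remaining low members overlapped or rested on very few reads. *Tnfsf18*, the gene of the GITR ligand, had 0, 1 and 0 reads in ND and 4, 1 and 3 reads in CDA-HFD, a ratio of 6.87 with an interval from 0.922 to 305. *Tnfsf4*, the gene of the OX40 ligand, had 0 and 3 reads. *Tnfrsf25*, which encodes death receptor 3 of T cells, had 0, 2 and 0 reads in ND and 7, 0 and 8 in CDA-HFD. Its ligand gene *Tnfsf15* was at 0.139, 0.154 and 0.153 TPM in ND and at 0.0919, 0 and 0.0416 TPM in CDA-HFD, the only member with every CDA-HFD library below every ND library. Its reads could not be recovered. Without a minimum level its change was -0.14 ± 0.05 (limma, adjusted p = 0.071).

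**Figure D3:**
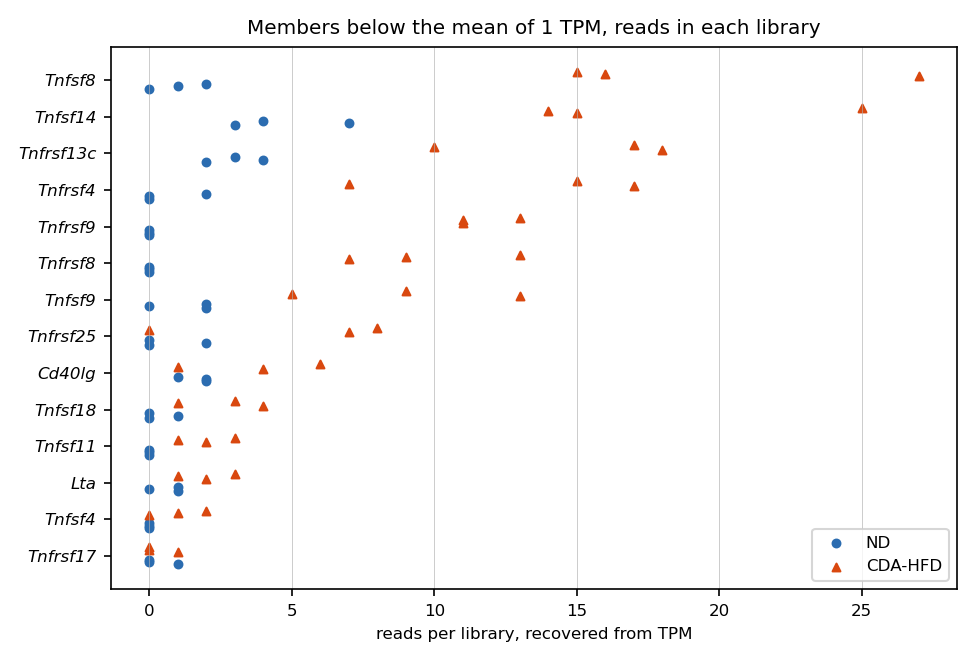
Reads per library, recovered from the TPM, of the 14 members below a mean of 1 TPM for which whole reads could be recovered, with circles for ND and triangles for CDA-HFD. *Tnfrsf9* and *Tnfrsf8* have 0 reads in all ND libraries and 7 to 13 in the CDA-HFD libraries, whereas *Tnfrsf17* has 1 read in 1 library of each diet.

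Summed over the superfamily, receptor genes made up 355, 338 and 310 TPM in the ND libraries and 722, 735 and 697 TPM in the CDA-HFD libraries. Ligand genes made up 19.3, 22.8 and 18.5 TPM in ND and 73.2, 78.9 and 78.7 TPM in CDA-HFD. The makeup of both sums differed. *Ltbr* and *Tnfrsf1a* held 77.6% to 77.8% of receptor TPM in ND and 49.8% to 57.9% in CDA-HFD, where *Tnfrsf12a* and *Tnfrsf1b* followed at mean levels of 132.5 ± 16.2 and 102 ± 3.27 TPM (SD, n = 3). *Tnfsf12* held 62.0% to 62.5% of ligand TPM with ND and 48.4% to 56.4% in CDA-HFD, and the share of *Ltb* went from 8.95% to 13.5% in ND to 23.4% to 25% in CDA-HFD.

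Of the 6 ratios between partner genes that were computed, 5 did not overlap between the diets. Each of these had an exact two-sided permutation p of 0.10 (0.12 adjusted over the 6), which is the smallest that 3 libraries against 3 allow, so none could pass 0.05. The ratio of *Tnfrsf13b* to *Tnfsf13b* had p = 0.40 in the same exact permutation test. A scaling factor common to all genes of a library cancels in these ratios.

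**Figure D4:**
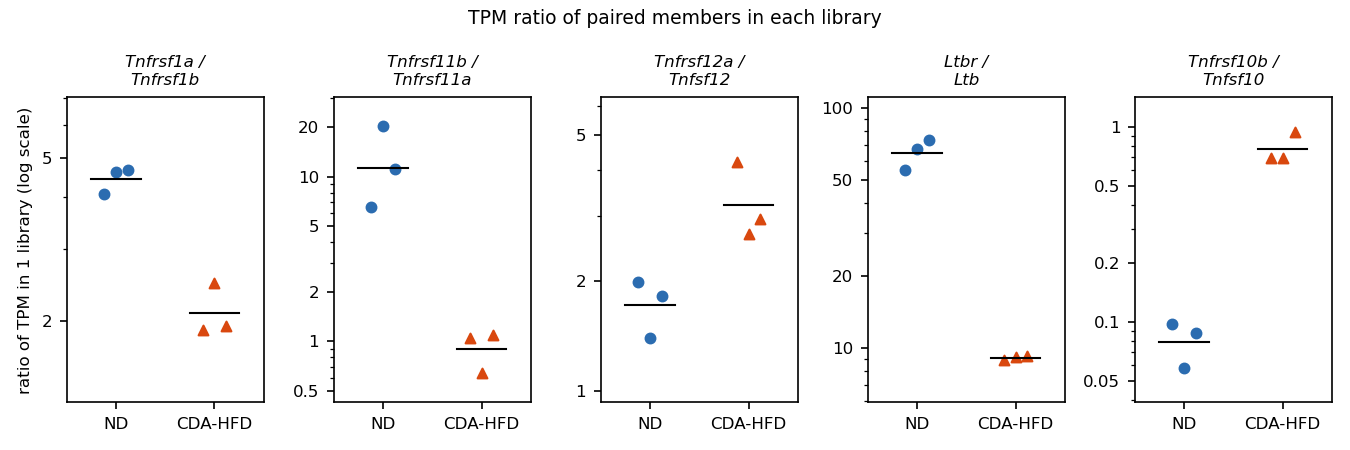
TPM ratio of 2 genes within each library, on log axes, for the 5 pairs whose groups did not overlap, with circles for ND, triangles for CDA-HFD and a line at the geometric mean. *Tnfrsf1a* over *Tnfrsf1b*, *Tnfrsf11b* over *Tnfrsf11a* and *Ltbr* over *Ltb* are lower in CDA-HFD, and *Tnfrsf12a* over *Tnfsf12* and *Tnfrsf10b* over *Tnfsf10* are higher.

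Genes around the superfamily were followed on 5 lists with 63 genes in all, of which 58 were tested, 27 rose and 0 fell (also 0 with voom). Of the 27 rises, 14 came from the list of TNF-induced genes alone. Over all genes tested, 21.1% rose. Among 9 superfamily genes that the symbol rule does not take in, *Eda2r*, a receptor of ectodysplasin, was the only one to rise, from 0.372, 0.313 and 0.556 TPM to 5.50, 3.70 and 3.34 TPM (1.86 ± 0.18, limma adjusted p = 4.98e-05). *Eda2r* and *Relt* reached the test's minimum only through their CDA-HFD level. *Fas*, the death receptor of hepatocytes, had a mean of 36.8 ± 3.67 TPM with ND and of 38.7 ± 1.09 TPM with CDA-HFD (SD, n = 3), with a log2 fold change of 0.08 ± 0.09. The other tested genes were *Ngfr* (-0.05 ± 0.14), *Eda* (0.47 ± 0.14) and *Relt* (0.83 ± 0.14), none of them called. *Fasl*, *Cd27*, *Cd70* and *Edar* were below the test's minimum, with CDA-HFD means of 0.917, 1.18, 0.0530 and 0.774 TPM.

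On the list of TRAF and death domain adaptors and the cell death and ubiquitin proteins that act with them, 3 of 15 tested genes rose. This share lay close to the 21.1% of all genes, and the median log2 fold change of 0.33 was close to that of all genes. These were *Mlkl* (2.06 ± 0.10), the effector of necroptosis, *Ripk3* (1.26 ± 0.17), its activating kinase, and *Birc2* (1.29 ± 0.07), which encodes the ubiquitin ligase cIAP1. *Mlkl* was at 6.96, 5.61 and 6.58 TPM in ND and at 30.4, 31.1 and 27.9 TPM in CDA-HFD. Of the ubiquitin and kinase complexes of TNF signaling, 4 of 16 rose, also a share near 21.1%, with a median of 0.42. The largest changes were in *Tnfaip3* (2.79 ± 0.14), which encodes the inhibitor A20, in *Tnip1* (2.21 ± 0.10), which encodes a partner of A20, and in *Map3k14* (1.57 ± 0.12), the kinase of the noncanonical NF-kappaB pathway.

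Genes that govern shedding of ligands and receptors rose in 5 of 7 cases, with a median of 1.22. Over all genes tested, 21.1% rose and the median was 0.32. *Timp3*, an inhibitor of the shedding protease ADAM17, rose by 2.05 ± 0.06, and *Rhbdf1* and *Rhbdf2*, whose products bring ADAM17 to the cell surface, rose by 1.97 ± 0.10 and 1.57 ± 0.08. *Adam17* itself, named after its values were seen, was at 18.6 ± 1.17 TPM with ND and at 34.0 ± 2.65 TPM with CDA-HFD (SD, n = 3), with a change of 0.83 ± 0.09 under the fold limit.

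Of 15 genes known to be induced by TNF, 14 rose, with a median of 2.50, against 21.1% and 0.32 over all genes tested. *Lcn2*, the gene of the iron-carrier binding protein lipocalin, rose by 5.28 ± 0.24, *Bcl2a1b*, a survival gene of the BCL2 family with close paralogs, by 3.78 ± 0.19, and the monocyte chemokine gene *Ccl2* and the immediate early gene *Ier3* by 3.04 each. *Sod2*, named after its values were seen, was the exception, at 110.0 ± 4.51 TPM with ND and 99.7 ± 3.69 TPM with CDA-HFD (SD, n = 3), with a log2 fold change of -0.14 ± 0.06 (limma, adjusted p = 0.071). Many of these genes also respond to other cytokines, and whether TNF had a part in their levels was not tested.

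**Figure D5:**
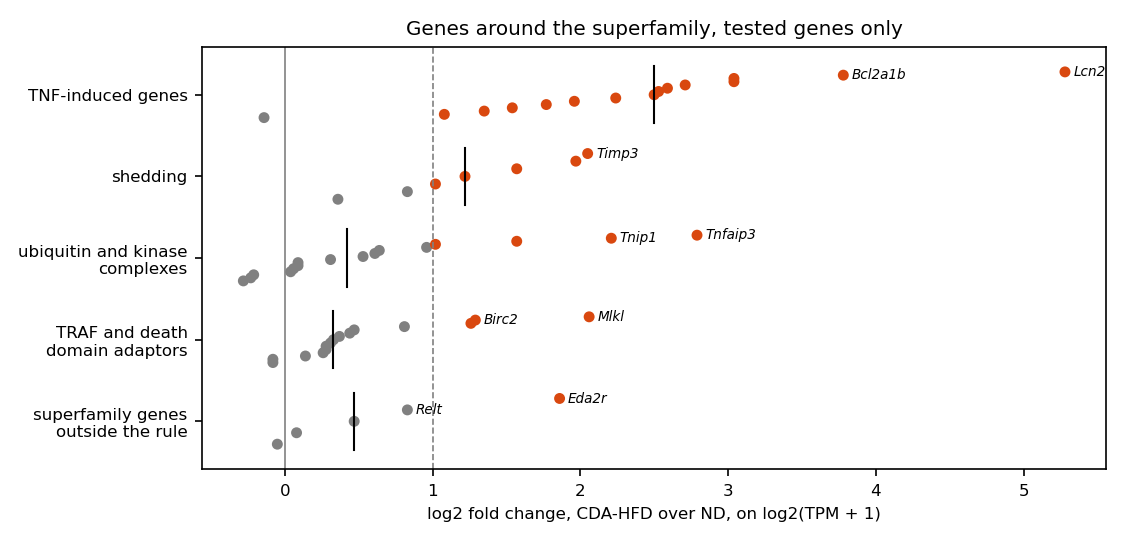
Change on the log2(TPM + 1) scale, CDA-HFD against ND, of the 58 tested genes of the 5 surrounding lists, in orange where the gene rose and in grey where it was not called, with a bar at each list's median and a dashed line at the fold limit of 1. The medians run from 0.33 for the adaptors to 2.50 for TNF-induced genes.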

How the data were processed

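The authors deposited TPM for 55254 genes in 6 liver libraries, with columns that sum to 1000000. The submitters' processing notes name Trimmomatic 0.39.0 for trimming, HISAT2 2.2.1 for alignment, featureCounts 2.0.1 for counting and the build GRCm38 (mm10). The study's methods add removal of duplicates with Picard. Strand setting and annotation release are not given in the sources used here.

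CDA-HFD was set against ND on log2(TPM + 1) by limma 3.58.1 (R 4.3.3; trended eBayes, two-sided), adjusting p-values by Benjamini-Hochberg over the 14730 genes that averaged 1 TPM or more. TPM times merged exon length (GENCODE basic annotation, GRCm38) gave whole multiples of 1 step per library, within 0.01 reads, for 98.4% of values above 0, which gave 13957519 to 15096491 reads in ND and 16560805 to 18620253 in CDA-HFD libraries. These served for exact 95% intervals, for floors of 3 reads and for voom. Intervals cover counting error only, and floors cover that of the ND count alone. Between replicates, counts differed beyond sampling noise (mean chi-square per gene 10.5 to 13.1 over genes with at least 50 reads).

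Every member was named. Called members and their partners were given per library, and on other lists the 3 largest rises. The members and lists were chosen with earlier results of these data known. Alternatives were pseudocounts of 0.1 and 0.5, other filters, scalings, eBayes settings and fold limits, the replicate block, leaving out each library, and voom. The fits were tested on simulated data with changes planted only in genes of many reads, which does not cover members with few reads.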

Additional observations from a re-analysis of the deposited data

How the results depend on the processing

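The count of members that rose was 15 with median-of-ratios scaling, with either other eBayes setting, with the replicate block and with each library left out in turn, 16 without a filter on low values, 17 and 16 with pseudocounts of 0.1 and 0.5, 18 with voom and 20 without a fold limit. It was 10 with quantile normalization and 6 at a minimum mean of 5 TPM, where 10 members were tested. Members that fell numbered 0 under each of these alternatives. Direction turned in *Tnfsf10* (-0.05 after median-of-ratios scaling and -0.42 after quantile normalization), *Tnfrsf11b* (-0.07 and -0.41), *Ltbr* (-0.08 with median-of-ratios scaling), *Tnfrsf22* (-0.11 with quantile normalization) and *Tnfsf13os* (-0.43 with quantile normalization), and the cause was not tested. The 5 calls lost with quantile normalization were those of *Cd40*, *Tnfrsf19*, *Tnfrsf23*, *Tnfsf13* and *Tnfsf13b*.

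Changed genes over the whole table numbered 3673, or 2345 at a minimum mean of 5 TPM and 9721 without a fold limit. Rises made up 84.8% of them, 69% with median-of-ratios scaling (2302 rises, 1033 falls) and 58.9% with quantile normalization (1718 and 1201). Without a fold limit, 44 of the 58 tested surrounding genes rose and 2 fell. In that setting 9721 of all 14730 tested genes changed in either direction.

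Replicate numbers were not taken to pair the samples, since the correlations of same-numbered deviations were 0.0862, 0.0387 and 0.0893, though each sample correlated best with its own number, a hint from the data and not the design. The replicate block left 15 members risen, 0 fallen and 3687 genes changed. Depth limits *Lta*, *Tnfrsf17*, *Tnfsf4*, *Tnfsf11* and *Tnfsf18*, each with fewer than 10 reads over all libraries.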
